A study of Mus musculus with 12 samples.

Results

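Gata1 and 8 further genes of the red cell transcription factor network (Gata2, Klf1, Tal1, Zfpm1, Lmo2, Ldb1, Gfi1b and Lyl1) were followed in whole bone marrow after a burn. They were chosen by name as the members of the GATA1 complex and its neighbouring factors, 9 genes of the 24415 in the count table, and all 9 passed the filter on low counts. The 12 libraries came from female C57BL/6J mice aged 8 weeks, with no genetic change named, in 3 groups of 4. Replicates 1 to 4 had a sham procedure and an isotype antibody, replicates 5 to 8 a flame burn and the isotype antibody, and replicates 9 to 12 a flame burn and an antibody that blocks G-CSF, the growth factor under which marrow makes neutrophils. Antibody was given 12 hours before the injury, at the injury and every day after it, and marrow was harvested on day 7. Sham mice given anti-G-CSF were not analysed here, so the effect of the antibody without a burn has no values.

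GATA1 is the master transcription factor of red cell development, and it also acts in megakaryocytes, eosinophils, basophils and mast cells. It binds DNA with its cofactor FOG1, the product of Zfpm1, and in a larger complex in which the helix-loop-helix protein TAL1 sits beside it and the non-DNA-binding adaptors LMO2 and LDB1 bridge the partners, with LDB1 also joining distant enhancers to promoters. GATA2 precedes GATA1 in progenitors and is replaced by it at many sites as red cells mature, KLF1 activates globin, blood group and membrane genes, GFI1B is a repressor that limits progenitor genes, and LYL1 is the paralog of TAL1 in stem and progenitor cells.

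Libraries held 18780399 to 25708084 gene counts. Levels are CPM, counts scaled to the library total with TMM factors, with SD over 4 libraries, and differences are log2 fold changes with SE. Every adjusted p comes from edgeR's quasi-likelihood test over the 15283 genes tested, with Benjamini-Hochberg adjustment, and a gene was called at an adjusted p under 0.05. The labels do not say that each library is a separate mouse, so the spread behind each p-value may be partly or wholly technical. Of 10 red cell markers, 9 were found, none at 0 in any library, and their summed level was 9637.5 to 10436 CPM in sham, 4433 to 6269 CPM in burn and 9633 to 14895 CPM in burn with anti-G-CSF. In this bulk tissue, fewer cells of a type and less RNA per cell cannot be told apart. The summed level of 15 brain genes was 420.0 to 502 CPM in sham, 346 to 756 CPM in burn and 691 to 1315 CPM in burn with anti-G-CSF, highest in replicates 12 and 9. Between the burn groups 11 of the 15 brain genes, 8 of 9 heart genes and 4 of 8 lens genes were called higher, and their part in the results was not tested. Most counts of factors and of list genes in the anti-G-CSF group are therefore also given without replicates 9 and 12. So are most values of the factors and ratios between the burn groups. Replicates 10 and 11, which remain, had brain sums of 691 and 714 CPM, above every sham library. That fit therefore does not remove the brain transcripts, and a call can be lost in it through the smaller group alone.

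After the burn, 8 of the 9 factors fell and none rose. Gfi1b fell most, by 1.02 on the log2 scale, followed by Klf1, Zfpm1 and Gata1, whereas Ldb1, the broadly used adaptor, fell by 0.34 and Lyl1 was not called. Across all genes 9.92% were called lower and 11.1% higher, with a median log2 fold change of -0.00026, and the median of the 9 was -0.59. The 4 burn libraries lay entirely below the 4 sham libraries for all 9 factors, a separation in either direction that 24.7% of all genes showed.

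Among the GATA factors and their cofactor, Gata1 (Entrez 14460, mm10 chrX:7959260-7967910, minus strand) stood at 118, 106, 103 and 97.2 CPM in sham replicates 1 to 4 and at 48.8, 78.0, 58.4 and 71.3 CPM in burn replicates 5 to 8. The lowest sham library was above the highest burn library, and the burn libraries were spread more widely. Gata1 fell by 0.73 ± 0.11 on the log2 scale (adjusted p = 0.000192). Zfpm1 (Entrez 22761, chr8:122282141-122337247, plus strand) stood at 205, 188, 201 and 192 CPM in sham and at 91.2, 135, 109.8 and 122 CPM in burn. It fell by 0.78 ± 0.10 (adjusted p = 5.19e-05), with replicate 5 lowest, as for Gata1. Gata2 (Entrez 14461, chr6:88198664-88207032, plus strand) stood at 31.9, 36.0, 30.2 and 33.1 CPM in sham and at 18.2, 24.5, 20.7 and 23.7 CPM in burn. The groups did not overlap, and Gata2 fell by 0.59 ± 0.11 (adjusted p = 0.000621).

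Of the TAL1 side of the complex, Tal1 (Entrez 21349, chr4:115056426-115071755, plus strand) stood at 254, 247, 251 and 213 CPM in sham and at 134, 185, 161 and 179.5 CPM in burn, a fall of 0.55 ± 0.11 (adjusted p = 0.00148). Lmo2 (Entrez 16909, chr2:103970287-103981878, plus strand) stood at 309, 282, 263 and 267 CPM in sham and at 180.4, 223, 177 and 210.4 CPM in burn, a fall of 0.50 ± 0.10 (adjusted p = 0.000908). For both genes every burn library was below every sham library. Ldb1 (Entrez 16825, chr19:46032601-46039621, minus strand) stood at 131, 123, 129 and 131 CPM in sham and at 96.2, 109, 98.8 and 100.2 CPM in burn, and fell by 0.34 ± 0.06 (adjusted p = 0.000802). Lyl1 (Entrez 17095, chr8:84701457-84704716, plus strand) stood at 132, 138, 128 and 129 CPM in sham and at 126, 128, 110.3 and 125 CPM in burn. The ranges of Lyl1 lay next to each other without overlap, and its change of -0.11 ± 0.07 was not called (adjusted p = 0.305), although it was called with libraries scaled by total count alone (-0.21, adjusted p = 0.0116).

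Klf1 (Entrez 16596, chr8:84901928-84905295, plus strand) stood at 194, 173, 158 and 149 CPM in sham and at 73.2, 116, 90.6 and 99.7 CPM in burn. Its lowest sham library exceeded its highest burn library, and it fell by 0.83 ± 0.12 (adjusted p = 0.000157). Gfi1b (Entrez 14582, chr2:28609450-28621982, minus strand) stood at 65.4, 56.2, 56.3 and 54.2 CPM in sham and at 23.3, 37.7, 23.8 and 30.3 CPM in burn, and fell by 1.02 ± 0.13 (adjusted p = 3.94e-05). Replicate 6 was the highest burn library and replicate 5 the lowest for Gata1, Klf1, Tal1, Zfpm1 and Gfi1b. Gene models of GENCODE M21 place Pprc1 across Ldb1, Nfix across Lyl1 and 4931422A03Rik across Lmo2 on the opposite strand, and Gm20388 across Zfpm1 on the same strand. These are overlaps of whole gene spans, and shared exons were not checked. Gm20388 and 4931422A03Rik are not in the count table. The strand setting of the counting was not stated in the labels, so whether reads of these pairs were counted together is not known.

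**Figure D1:**
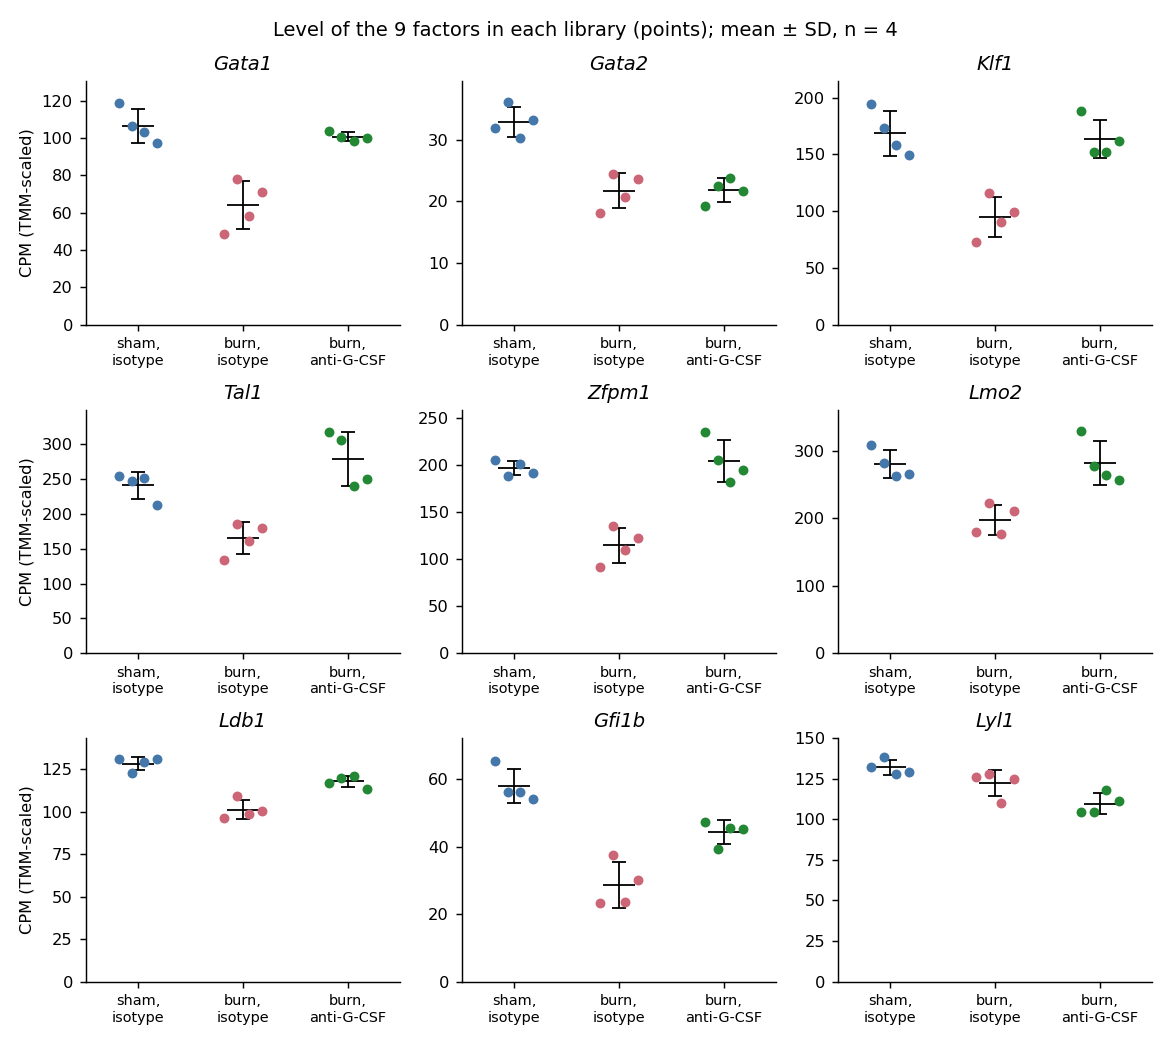
Level of each of the 9 factors in CPM (vertical axis, from 0) in the 12 libraries (points) by group, with the mean and SD of 4 libraries as bars. The 4 burn isotype points lie below the 4 sham points in every panel, and Gata2 and Lyl1 are the panels in which the anti-G-CSF points do not lie above the burn isotype points.

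Under the anti-G-CSF antibody, 7 of the 9 factors were higher than in burn with isotype antibody and none was called lower. The rises were 0.84 for Zfpm1, 0.78 for Klf1, 0.76 for Tal1, 0.65 for Gata1, 0.63 for Gfi1b, 0.51 for Lmo2 and 0.22 for Ldb1, while Gata2 and Lyl1 were not called. Of all genes, 17.7% were called higher and 16.9% lower in this comparison, and the median log2 fold change was 0.083 over all genes and 0.63 over the 9. Groups did not overlap for 7 of the 9 factors, against 28.9% of all genes. Both comparisons use the same burn isotype libraries, so a low burn library lowers one and raises the other.

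Gata1 stood at 104, 100.3, 98.2 and 99.7 CPM in replicates 9 to 12, an SD of 2.41 CPM around 101 CPM against an SD of 13.0 CPM around 64.1 CPM in burn isotype. All 4 libraries exceeded the highest burn isotype library, and Gata1 was higher by 0.65 ± 0.11 (adjusted p = 0.000239). Zfpm1 stood at 235, 205, 182 and 195 CPM, higher by 0.84 ± 0.10 (adjusted p = 7.93e-06). Its highest library was replicate 9, and its lowest was still above every burn isotype library. Gata2 stood at 19.3, 22.6, 23.9 and 21.6 CPM, within the burn isotype range, with a difference of 0.01 ± 0.11 (adjusted p = 0.975).

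Tal1 stood at 318, 306, 240.2 and 250.03 CPM and was higher by 0.76 ± 0.11 (adjusted p = 4.49e-05). Replicates 9 and 10 exceeded every sham library of Tal1, and replicates 11 and 12 lay inside the sham range. Lmo2 stood at 330.1, 278, 265 and 257 CPM, higher by 0.51 ± 0.10 (adjusted p = 0.000428). Ldb1 stood at 117, 120.0, 121 and 113 CPM, all between the burn isotype and the sham libraries, and was higher by 0.22 ± 0.06 (adjusted p = 0.0135). Fitted on the 8 libraries of the comparison alone, the difference of Ldb1 was 0.19 and was not called (adjusted p = 0.0571). Pprc1, which overlaps Ldb1, differed by 0.26 ± 0.11 between the burn groups (adjusted p = 0.0677). Lyl1 stood at 104, 105, 118 and 111 CPM, with a difference of -0.16 ± 0.07 (adjusted p = 0.0873), and was called lower under DESeq2 scaling (adjusted p = 0.0479), the DESeq2 Wald test (adjusted p = 0.0305) and without replicate 7 (adjusted p = 0.0321).

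Klf1 stood at 188, 152, 152 and 161 CPM, above all burn isotype libraries, and was higher by 0.78 ± 0.12 (adjusted p = 0.000104). Gfi1b stood at 47.5, 39.2, 45.5 and 45.3 CPM, between the burn isotype and the sham libraries in all 4 cases, and was higher by 0.63 ± 0.13 (adjusted p = 0.00104). Without replicates 9 and 12, the libraries with the most brain transcripts, the same 7 factors were called higher, with log2 fold changes of 0.64 for Gata1, 0.77 for Zfpm1, 0.74 for Tal1, 0.47 for Lmo2, 0.26 for Ldb1, 0.69 for Klf1 and 0.57 for Gfi1b. Gata2 then differed by 0.10 (adjusted p = 0.637) and Lyl1 by -0.13 (adjusted p = 0.372).

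**Figure D2:**
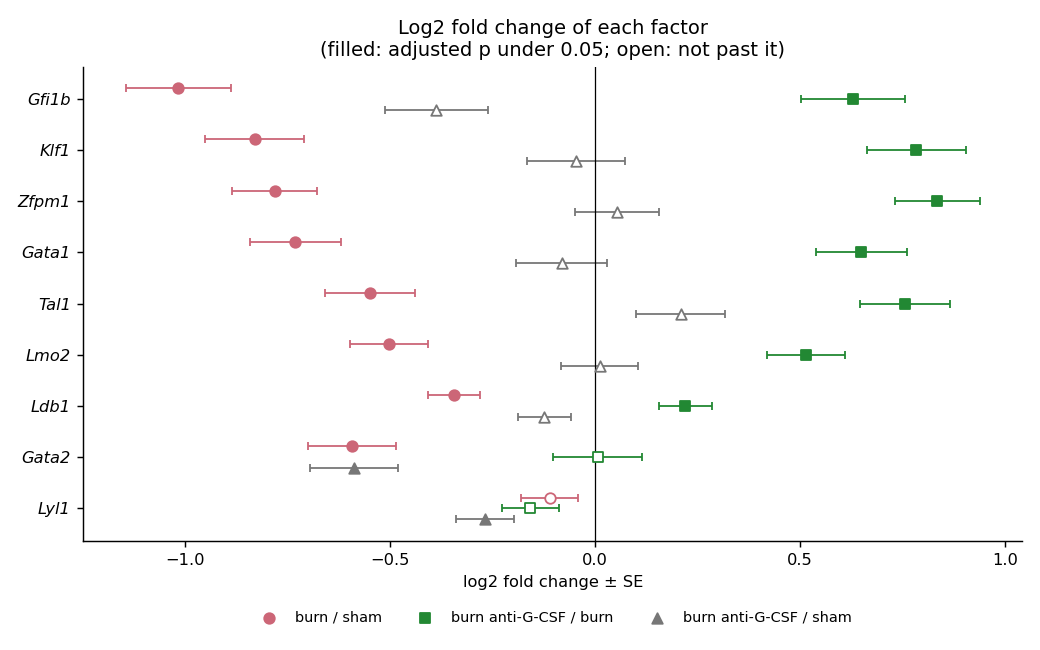
Log2 fold change with SE (horizontal axis) of each factor in burn against sham (circles), burn with anti-G-CSF against burn with isotype (squares) and burn with anti-G-CSF against sham (triangles), filled where the adjusted p was under 0.05. For Gata2 the circle and the triangle lie at -0.59 and the square at 0.01.

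Against sham, burn with anti-G-CSF left 7 of the 9 factors uncalled and 2 lower, Gata2 and Lyl1. Of all genes 3.91% were called lower and 7.09% higher, with a median of -0.0046, and the median of the 9 was -0.08. Groups did not overlap for 4 factors (Gata2, Ldb1, Gfi1b and Lyl1), against 17.0% of all genes. Gata2 had a mean of 32.8 ± 2.45 CPM (SD, n = 4) in sham, 21.8 ± 2.90 after burn and 21.8 ± 1.94 with anti-G-CSF, a difference from sham of -0.59 ± 0.11 in the last (adjusted p = 0.00705). Without replicates 9 and 12 that difference was -0.50 and was not called (adjusted p = 0.149), and with the brain score as a covariate it was -0.45 (adjusted p = 0.685). The brain score did not overlap between these groups, so this covariate cannot tell the group difference from that of brain transcripts. Lyl1 was lower than sham by a log2 fold change of -0.27 ± 0.07 (adjusted p = 0.0243), a call lost without replicates 9 and 12 (adjusted p = 0.292) and without any 1 of replicates 1, 2, 4, 9, 10 or 12 (adjusted p from 0.0523 to 0.0865). Nfix, the neighbour on the other strand, differed from sham by 0.22 ± 0.09 under anti-G-CSF and was not called (adjusted p = 0.153). Between the burn groups it differed by 0.32 ± 0.09 (adjusted p = 0.0141).

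For Gfi1b the difference from sham was -0.39 ± 0.13 (adjusted p = 0.0557), and it was called under DESeq2 scaling (adjusted p = 0.0382), the DESeq2 Wald test (adjusted p = 0.0183), limma-voom (adjusted p = 0.0457) and a fit on the 8 libraries alone (adjusted p = 0.00957), and was -0.46 without replicates 9 and 12 (adjusted p = 0.298). In that fit without replicates 9 and 12, the other 6 factors ranged from -0.15 for Klf1 to 0.18 for Tal1, none of them called. Gata1 differed from sham by -0.08 ± 0.11 (adjusted p = 0.719), Klf1 by -0.05 ± 0.12 (adjusted p = 0.868), Zfpm1 by 0.05 ± 0.10 (adjusted p = 0.808), Lmo2 by 0.01 ± 0.09 (adjusted p = 0.964), Tal1 by 0.21 ± 0.11 (adjusted p = 0.247) and Ldb1 by -0.12 ± 0.06 (adjusted p = 0.241). A missed threshold does not show equal levels, and the SE gives the size of difference these libraries could leave unseen.

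The genes around the factors were counted in lists of textbook members. Over all genes, 9.92% were called lower and 11.1% higher after burn, and 16.9% and 17.7% between the burn groups. Against sham under anti-G-CSF the shares were 3.91% and 7.09%. These shares also stand beside the marker lists below. Of 12 GATA1 targets tested, all 12 fell after burn, with a median log2 fold change of -0.72, and all 12 were higher under anti-G-CSF, with a median of 0.90. Alas2, which encodes the red cell form of the enzyme that starts heme synthesis, fell by 1.18 ± 0.15 (adjusted p = 5.3e-05) and was higher by 1.39 ± 0.15 under anti-G-CSF (adjusted p = 3.3e-06), or 1.29 without replicates 9 and 12. Urod, a later heme enzyme, fell by 0.68 ± 0.10 (adjusted p = 0.000167), and Abcb10, a mitochondrial transporter of developing red cells, fell by 0.67 ± 0.10 (adjusted p = 0.000143). Of 11 KLF1 targets, 10 fell and 10 were higher under anti-G-CSF, with medians of -0.73 and 0.83, the exception in both being Bcam, a blood group adhesion molecule named after its values were seen. Aqp1, the red cell water channel, fell by 0.83 ± 0.11 (adjusted p = 6.2e-05), and Dmtn, which encodes the membrane skeleton protein dematin, fell by 0.77 ± 0.12 (adjusted p = 0.000174). The counts of both lists between the burn groups were the same without replicates 9 and 12. Against sham, 0 of the 12 GATA1 targets were called under anti-G-CSF by edgeR, DESeq2 or limma-voom, and 1 had an unadjusted edgeR p under 0.05. Of the 11 KLF1 targets 1 was called higher than sham, Bcam, by 1.13 ± 0.34 (adjusted p = 0.0432), with 2 called by DESeq2 and 0 by limma-voom. Without replicates 9 and 12 edgeR called 0 of the 11, and Bcam was at 0.74 (adjusted p = 0.499). Bcam had the lowest level of the 11, at a mean of 2.56 CPM in sham and 5.57 CPM with anti-G-CSF.

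The partners of the complex moved less as a list. Of 21 partners and corepressors tested, 4 fell and 3 rose after burn, with a median of -0.07. Over all genes 9.92% were lower and 11.1% higher. Under anti-G-CSF 5 of the 21 were lower and 4 higher, against 16.9% and 17.7% of all genes. These counts were 4 and 4 without replicates 9 and 12, and 2 and 4 with the brain score as a covariate. Those that fell were Tcf3, by 0.67 ± 0.10 (adjusted p = 0.000138), Tcf12, by 0.58 ± 0.08 (adjusted p = 4.6e-05), Ssbp3, by 0.55 ± 0.07 (adjusted p = 2.64e-05), and Smarca4. TCF3 and TCF12 are the E proteins that pair with TAL1, and SSBP3 binds and stabilises LDB1. Under anti-G-CSF, Tcf3 was higher by 0.54 ± 0.10 (adjusted p = 0.000396), Tcf12 by 0.43 ± 0.08 (adjusted p = 0.000242) and Ssbp3 by 0.54 ± 0.07 (adjusted p = 7.31e-06). Those that rose after burn were Ssbp4, Lmo4 and Ctbp2, named, like Smarca4, after their values were seen, at 0.44, 0.28 and 0.56.

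Of 12 other red lineage factors, 6 fell after burn and 8 were higher and 1 lower under anti-G-CSF (6 and 0 without replicates 9 and 12, 4 and 0 with the brain score as a covariate). Sox6, which represses embryonic globin genes, fell by 0.79 ± 0.12 (adjusted p = 0.000158) and was higher by 0.86 ± 0.12 (adjusted p = 2.56e-05), or 0.75 without replicates 9 and 12. Tfdp2, a partner of E2F proteins in maturing red cells, fell by 0.86 ± 0.13 (adjusted p = 0.000224) and was higher by 1.05 ± 0.13 (adjusted p = 1.41e-05), or 0.93 without these libraries. Among 9 factors of other blood lineages or paralogs, 4 rose after burn, with a list median of 0.36, and 6 were lower under anti-G-CSF (4 without replicates 9 and 12). Spi1, the myeloid factor known to antagonise GATA1, rose by 0.59 ± 0.12 (adjusted p = 0.00149) and was lower under anti-G-CSF, by a log2 fold change of -1.04 ± 0.12 (adjusted p = 4.1e-06), or -0.91 without replicates 9 and 12. Gfi1, the paralog of Gfi1b used in neutrophils, rose by 0.48 ± 0.09 (adjusted p = 0.00103) and differed by -0.77 ± 0.09 under anti-G-CSF (adjusted p = 5.95e-06). Of 10 stem and progenitor genes 0 were called after burn by edgeR, also at an unadjusted p under 0.05, and 0 by limma-voom and by DESeq2, which tested 8 of them. Their median was -0.03, and Kit, the stem cell factor receptor, differed by -0.14 ± 0.10 (adjusted p = 0.359). Under anti-G-CSF 2 of the 10 were lower than in burn, Hhex by a log2 fold change of -0.36 ± 0.11 (adjusted p = 0.0155) and Cd34 by -0.27 ± 0.10 (adjusted p = 0.048), and 1 was lower than sham, Flt3 by -0.38 ± 0.12 (adjusted p = 0.0499). Hhex and Cd34 were named after their values were seen, and without replicates 9 and 12 edgeR called 0 of the 10 in either comparison.

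**Figure D3:**
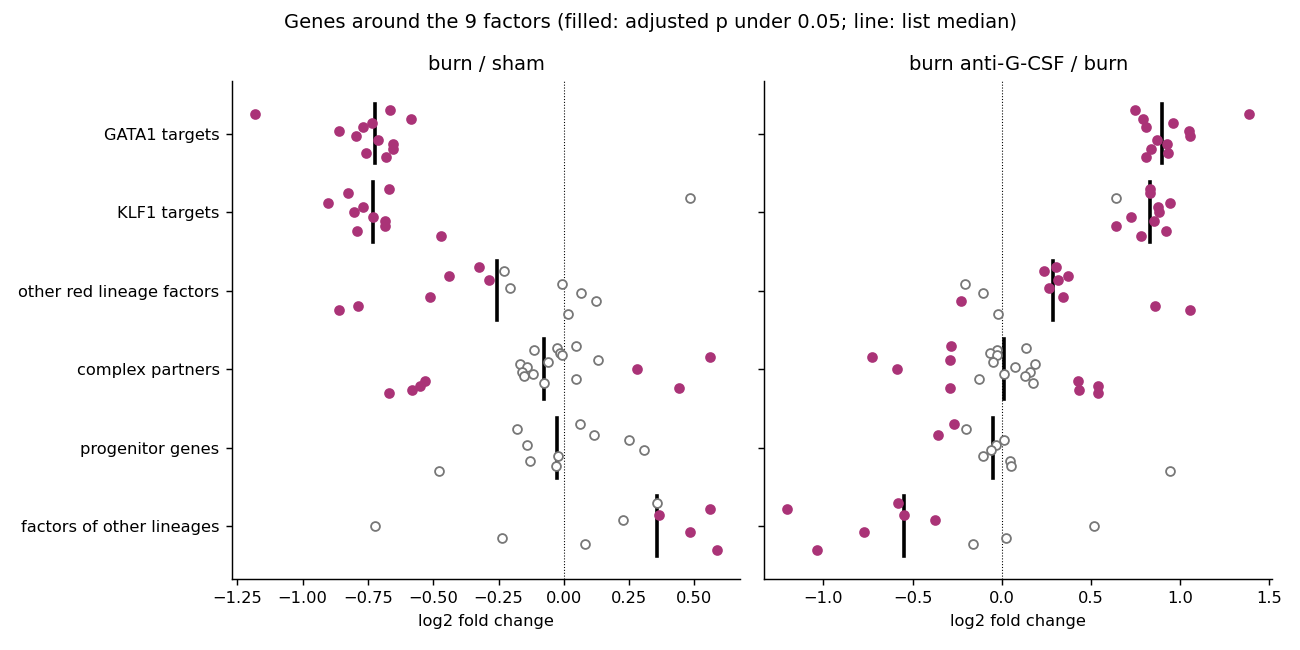
Log2 fold change of each gene of 6 lists (points, filled where the adjusted p was under 0.05) with the list median (vertical line), in burn against sham (left) and burn with anti-G-CSF against burn with isotype (right). The GATA1 targets lie left of 0 in the first panel and right of 0 in the second, and the progenitor genes are all open in the first.

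Marker lists of other marrow cells that use these factors moved in their own ways. Megakaryocyte markers, of cells that also need GATA1, FOG1 and GFI1B, had 1 of 11 lower after burn and 0 called under anti-G-CSF by edgeR (1 at an unadjusted p under 0.05, and 1 by DESeq2 and by limma-voom), and their sum was 825 to 1045 CPM in sham and 461 to 914 CPM in burn. Eosinophil markers, of which 6 of 7 fell after burn, had a sum of 3015 to 6068 CPM in sham, 1794 to 2759 CPM in burn and 1756 to 3153 CPM in burn with anti-G-CSF. Between the burn groups 1 of 7 was higher, also without replicates 9 and 12. Against sham 3 of 7 were lower under anti-G-CSF, with a median of -0.84. Without replicates 9 and 12, 0 of 7 were called below sham, with a median of -0.58. Of 6 basophil and mast cell markers tested, 4 fell and 1 rose after burn. Under anti-G-CSF 2 were lower than in burn (1 without replicates 9 and 12), and all 6 were below sham. The count below sham became 1 of 7 without replicates 9 and 12 and 0 of 6 with the brain score. The list median against sham was -0.68, and it was -0.60 without these replicates and -0.52 with the brain score. The sum of these markers was 617 to 751 CPM in sham, 659 to 774 CPM after burn and 326 to 516 CPM with anti-G-CSF. Mcpt8, a basophil protease, was at -0.69 ± 0.12 after burn (adjusted p = 0.000441), -0.04 between the burn groups (adjusted p = 0.825) and -0.73 ± 0.12 against sham under anti-G-CSF (adjusted p = 0.00452), beside Gata2 at -0.59, 0.01 and -0.59. Hdc, which encodes the histamine-forming enzyme and had the smallest p of the list after burn, went the other way, at 0.80 ± 0.12 after burn (adjusted p = 0.000181) and -1.46 ± 0.12 between the burn groups (adjusted p = 1.71e-07). Its level was 229.6 ± 14.9 CPM in sham (SD, n = 4), 399 ± 27.0 after burn and 145 ± 34.1 with anti-G-CSF. Hdc was the largest part of the sum of this list after burn, so that sum does not show the fall of the 4 others. Of 9 endothelial markers, 1 fell after burn and 2 were higher under anti-G-CSF (1 without replicates 9 and 12). All 10 neutrophil markers rose after burn, with a median of 0.81. Under anti-G-CSF all 10 were lower than in burn, with a median of -1.42, and 9 of 10 were below sham, with a median of -0.59. Without replicates 9 and 12, 1 of 10 was called below sham, with a median of -0.52. With the brain score, which did not overlap between sham and anti-G-CSF, 0 of 10 were called, with a median of -0.38. All 9 B lineage markers fell after burn, with a median of -1.07, and all 9 were higher under anti-G-CSF than in burn, with a median of 0.98. The neutrophil and B lineage counts between the burn groups were the same without replicates 9 and 12. The part of any of these cells in the values of the 9 factors was not tested.

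The factors were also set against the red cell markers of the same library. Per 1000 counts of the 9 red cell markers, Gata1 had a mean of 10.6 ± 0.753 counts in sham (SD, n = 4), 11.4 ± 1.35 after burn and 8.90 ± 1.44 with anti-G-CSF. Klf1 had 16.7 ± 1.81 in sham, 16.9 ± 1.93 in burn and 14.3 ± 1.85 with anti-G-CSF, and Zfpm1 19.5 ± 0.105, 20.4 ± 1.78 and 17.9 ± 1.84. The ranges of these 3 genes in sham and burn overlapped. Lyl1 had 13.1 ± 0.876, 22.3 ± 4.31 and 9.78 ± 2.15, Ldb1 12.7 ± 0.343, 18.3 ± 2.503 and 10.5 ± 1.84, and Lmo2 27.8 ± 1.97, 35.7 ± 4.54 and 24.7 ± 1.96. For these 3 and for Tal1, at 23.9 ± 1.72 in sham and 29.5 ± 1.67 in burn, the burn libraries lay above the sham libraries. Gata2, at 3.27 ± 0.361 in sham and 3.90 ± 0.286 in burn, overlapped between these groups, and its libraries with anti-G-CSF, at 1.96 ± 0.466, lay below both. Gfi1b, at 5.76 ± 0.379 in sham and 5.14 ± 0.968 in burn, had overlapping ranges, and its 3.93 ± 0.739 in burn with anti-G-CSF lay below sham. In replicates 10 and 11 alone, Gata1 was at 8.74 and 9.52 per 1000 marker counts, Gata2 at 1.97 and 2.32 and Gfi1b at 3.42 and 4.41. These values are descriptions, since the markers are themselves targets of GATA1 and KLF1. The summed markers also rest mostly on Slc4a1 and Alas2, at 3503 and 3086 CPM of a mean sum of 10073 CPM in sham.

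The balance between pairs of factors was compared as the ratio of counts within a library, read only between groups. With 7 ratios in 3 comparisons, 21 exact permutation tests were made, 2-sided over 70 assignments, and the smallest p that 4 against 4 allows, 0.0286, becomes 0.0545 after Benjamini-Hochberg adjustment, so no ratio passed 0.05 after adjustment. Gata1 to Gata2 was 3.71, 2.95, 3.42 and 2.93 in sham, 2.69, 3.18, 2.82 and 3.01 in burn and 5.39, 4.45, 4.11 and 4.61 in burn with anti-G-CSF. The anti-G-CSF libraries were above all others, by a log2 difference of 0.66 from burn (exact p = 0.0286), and sham and burn overlapped (exact p = 0.2). Gfi1b to Gata1 was 0.552, 0.528, 0.545 and 0.558 in sham, 0.477, 0.483, 0.407 and 0.425 in burn and 0.457, 0.391, 0.463 and 0.454 in burn with anti-G-CSF. It was lower than sham in both burn groups (exact p = 0.0286 in each), and the burn groups overlapped each other.

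Tal1 to Lyl1 was 1.92, 1.78, 1.96 and 1.65 in sham, 1.0596, 1.45, 1.46 and 1.44 in burn and 3.04, 2.93, 2.04 and 2.25 in burn with anti-G-CSF, with no overlap between any groups (exact p = 0.0286 in each of the 3 comparisons). Gfi1b to its paralog Gfi1 was 2.48, 1.97, 2.22 and 1.81 in sham, 0.606, 1.01, 0.679 and 0.696 in burn and 2.01, 1.62, 2.18 and 2.10 in burn with anti-G-CSF. Burn libraries were below all others for this ratio (exact p = 0.0286 against each), and the other groups overlapped (exact p = 0.514). Every burn library was below all others for Gfi1b and above all others for Gfi1. The separation of burn and its p were therefore fixed by the single genes and add no support to them. The mean ratio of Gata1 to Spi1 was 0.440 ± 0.0258 (SD, n = 4) in sham, 0.180 ± 0.0445 after burn and 0.582 ± 0.113 with anti-G-CSF. Burn was again separate from both others for Gata1 to Spi1 (exact p = 0.0286 against each), and anti-G-CSF overlapped sham (exact p = 0.0857). This separation of burn was also fixed by the single genes, since every burn library was below all others for Gata1 and above all others for Spi1. Klf1 to Gata1 and Zfpm1 to Gata1 overlapped between all groups, with exact p-values from 0.0571 to 0.743. Without replicates 9 and 12, the log2 difference between the burn groups was 0.55 for Gata1 to Gata2, -0.07 for Gfi1b to Gata1, 0.87 for Tal1 to Lyl1, 1.36 for Gfi1b to Gfi1 and 1.57 for Gata1 to Spi1.

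**Figure D4:**
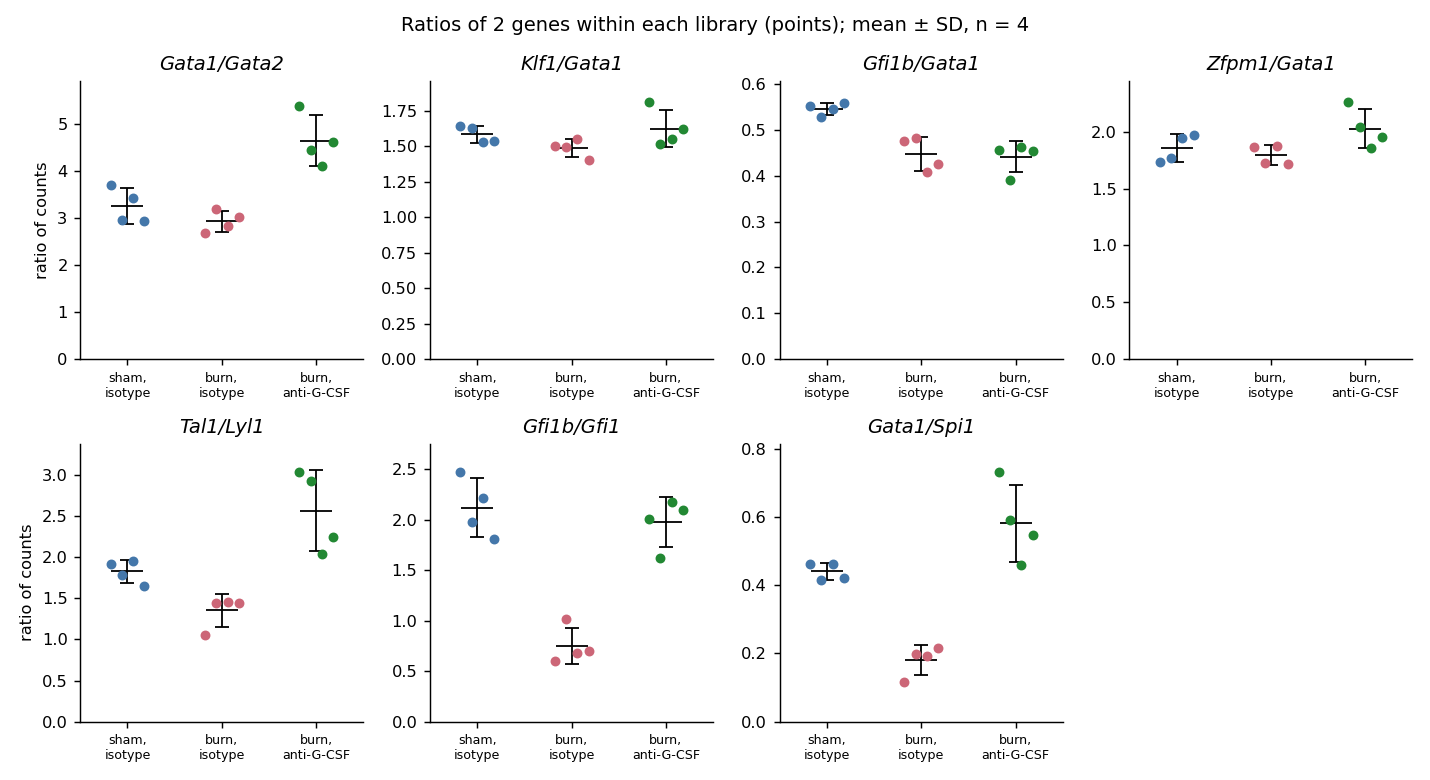
Ratio of counts of 2 genes (vertical axis, from 0) in each of the 12 libraries (points), with the mean and SD of 4 libraries as bars, for 7 pairs. The burn points of Gfi1b/Gfi1 and Gata1/Spi1 lie below the other groups, and the anti-G-CSF points of Gata1/Gata2 lie above them.

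Per kilobase of exon, the levels ran in sham from Lmo2 at 129 CPM per kb and Klf1 at 110.2 through Lyl1 at 73.3, Zfpm1 at 56.1, Tal1 at 55.0, Gata1 at 43.6, Gfi1b at 31.7 and Ldb1 at 27.9 to Gata2 at 6.08. Lmo2 and Klf1, Zfpm1 and Tal1, and Tal1 and Gata1 were neighbours whose ranges overlapped. In burn, Lyl1 at 67.9 CPM per kb stood beside Klf1 at 62.0 with overlapping ranges, and Gfi1b at 15.7 stood below Ldb1 at 21.96 without overlap. Under anti-G-CSF, Klf1 at 107 CPM per kb was again above Lyl1 at 60.9 without overlap, and Gfi1b at 24.3 overlapped Ldb1 at 25.6. Gata2 was lowest in every group, at 4.03 CPM per kb in burn and 4.05 with anti-G-CSF. Exon lengths are of GENCODE M21, with all exons of a gene joined, and the annotation used for counting is not given. The order across genes therefore depends on these lengths.

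Among the 9803 other genes searched, those whose level over the 12 libraries lay closest to that of Gata1, by the root mean square difference of centred log2 CPM, were Alad at 0.077, Sh3tc2 at 0.084, Septin8 at 0.088, Slc14a1 at 0.090 and Sphk1 at 0.091, against a median of 0.400 over all genes searched. Closest to Klf1 were Cldn13 and Sphk1 at 0.061, Fahd1 at 0.062, Ctse at 0.064 and Aqp1 at 0.067. Alad encodes an enzyme of heme synthesis. Gata2 had more distant nearest genes, Csf1 at 0.126 and Ms4a2, a chain of the mast cell and basophil IgE receptor, at 0.137, followed by Wdr92, Gimap9 and Nat6. Closest to Lyl1 was Pttg1ip at 0.061, followed by Pqlc1, Crcp, Rfc2 and Tmem167b. Among the factors themselves, Gata1 and Klf1 were 0.088 apart, Klf1 and Zfpm1 0.095, Gata1 and Gata2 0.310 and Zfpm1 and Lyl1 0.452. The libraries share scaling and the 3 group means, so these distances are descriptions.

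Promoter sequence from RefSeq (GRCm38.p6) was found for 8 of the 9 factors, in 12 windows from 250 bases before to 50 after an annotated start, and none was found for Lmo2. Shown are the 250 bases before the start, 5′ to 3′ on the gene's strand, for Gata1, for the 3 genes with a GATA match and a single or first start, and for Lyl1, which was not called after burn. Capitals mark matches, on either strand, of the GATA motif (AGATAA and its variant AGATAG, or TGATAA and its variant TGATAG) and of the CACCC motif bound by KLF factors (CCNCNCCC, where N is any base). The second pattern also matches runs of C or G, and it misses some stretches that hold the letters CACCC.
Gata1 (chrX:7967911-7968160, minus strand): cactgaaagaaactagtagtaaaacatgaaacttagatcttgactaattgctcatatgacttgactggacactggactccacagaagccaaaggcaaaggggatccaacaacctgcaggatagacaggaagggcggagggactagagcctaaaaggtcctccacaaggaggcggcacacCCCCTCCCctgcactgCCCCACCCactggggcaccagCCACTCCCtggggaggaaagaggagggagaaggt
Klf1 (chr8:84901732-84901981, plus strand): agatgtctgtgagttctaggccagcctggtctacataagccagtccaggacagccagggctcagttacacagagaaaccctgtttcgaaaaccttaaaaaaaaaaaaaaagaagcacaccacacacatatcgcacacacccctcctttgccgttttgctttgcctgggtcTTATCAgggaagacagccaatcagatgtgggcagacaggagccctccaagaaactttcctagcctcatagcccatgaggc
Tal1, first start (chr4:115056176-115056425, plus strand): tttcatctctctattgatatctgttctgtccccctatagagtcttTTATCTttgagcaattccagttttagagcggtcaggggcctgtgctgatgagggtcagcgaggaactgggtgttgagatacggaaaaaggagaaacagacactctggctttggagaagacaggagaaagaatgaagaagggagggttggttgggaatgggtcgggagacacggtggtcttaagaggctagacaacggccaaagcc
Gfi1b (chr2:28621983-28622232, minus strand): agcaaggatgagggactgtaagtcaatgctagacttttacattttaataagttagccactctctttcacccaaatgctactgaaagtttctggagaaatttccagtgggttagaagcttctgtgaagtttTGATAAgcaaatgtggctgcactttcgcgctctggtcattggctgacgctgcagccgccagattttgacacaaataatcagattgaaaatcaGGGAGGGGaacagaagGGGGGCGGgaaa
Lyl1 (chr8:84701207-84701456, plus strand): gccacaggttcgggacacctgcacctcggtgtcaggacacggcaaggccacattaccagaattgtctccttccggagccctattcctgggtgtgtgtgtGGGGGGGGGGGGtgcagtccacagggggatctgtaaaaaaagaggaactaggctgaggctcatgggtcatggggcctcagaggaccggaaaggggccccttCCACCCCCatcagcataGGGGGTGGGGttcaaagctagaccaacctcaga

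In the full windows, a GATA match was in 4 of the 12, against 29.8% of all 32851 windows, a CACCC match in 10 of the 12, against 49.5%, and an E-box (CANNTG, the site type of TAL1 dimers) in 7 of the 12, against 72.3%. Matches of different motifs did not overlap. The GATA match of Klf1 lay at -80 to -75 from the start, that of Tal1 at -205 to -200 and that of Gfi1b at -120 to -115, and the third start of Ldb1 held the others. The window of Gata1 held no GATA match and 3 CACCC matches, beginning at -71, -55 and -34. Klf1, Tal1 and Gfi1b, with a match, and Gata1 and Zfpm1, without one, all fell after burn. A match describes letters and not binding, and no match says only that these letters are not in this window.

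**Figure D5:**
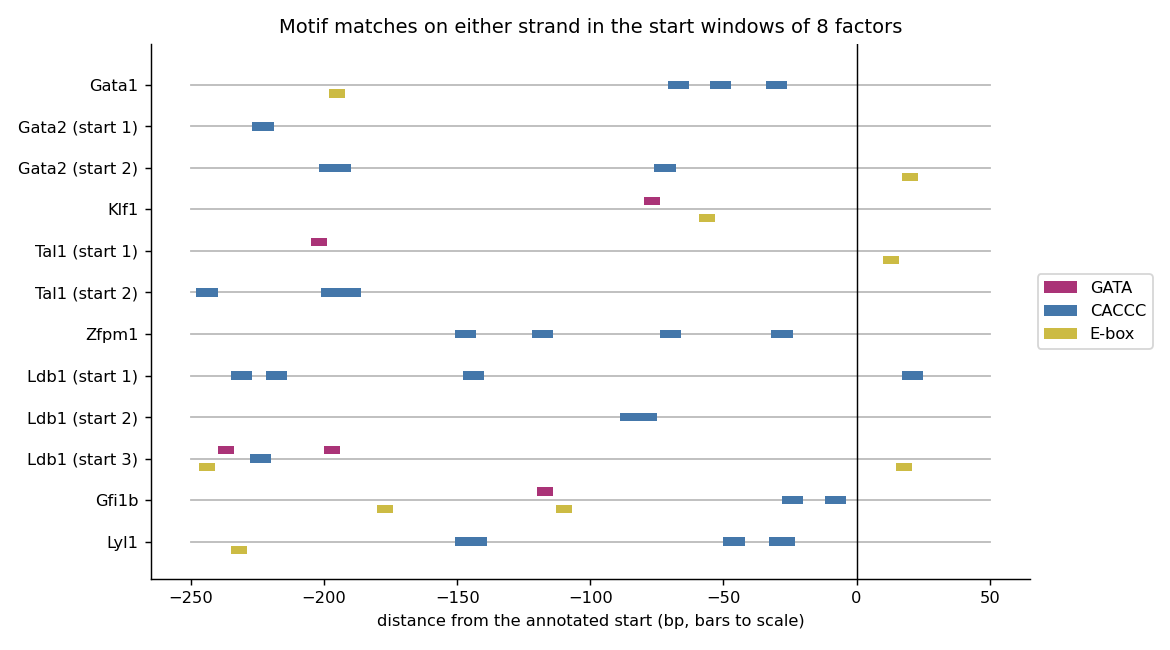
Matches of the GATA, CACCC and E-box motifs (bars, to scale, either strand) in 12 start windows of 8 factors, by distance from the annotated start in bases (horizontal axis). GATA matches are in the windows of Klf1, Gfi1b, the first start of Tal1 and the third start of Ldb1.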

How the data were processed

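RNA of whole bone marrow was read from 1 table that the authors deposited, of raw gene counts. Per the labels' protocols, libraries were polyadenylated RNA made with a strand-specific kit. The submitters' processing notes name TopHat2, an aligner, and the build mm10. How reads were counted, on which strand and with which annotation is not given in the sources used here. Groups come from the labels. Starts were raised by 1 to count from 1.

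edgeR 4.0.16 in R 4.3.3 (filterByExpr, TMM, quasi-likelihood, robust) was fitted to all 12 libraries, leaving 9 residual degrees of freedom, and each of 3 comparisons was tested 2-sided and adjusted over 15283 genes. Total counts were 18780399 to 25708084 a library. Chi-square per degree of freedom was 6.02 to 33.6 for the 18 pairs within groups, so none looked like a repeat. The fit was tested on simulated data. The members, lists and tests were chosen with earlier results of these data known. Of 161 list genes 160 were found, and Ahsp is not analysed here. Named genes are the 9 members, the ratio genes, the 3 of each list with the smallest p after burn (some are given) and the 5 nearest genes of Gata1, Klf1, Gata2 and Lyl1 with a mean log2 CPM of 3 or more. Pprc1 and Nfix were added as overlapping genes. A gene that the rule names is not reported here. The brain score averages the log2 CPM of 15 brain genes. It was 3.92 to 4.21 in sham and 4.70 to 5.61 in burn with anti-G-CSF, without overlap. Between these groups, a call lost with this covariate therefore cannot be assigned to brain transcripts. Ratios were tested with scipy 1.17.1 in Python 3.11.15.

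Alternatives were DESeq2 1.42.0 size factors and Wald test, upper quartile and library-size scaling, no filter, CPM above 1 in at least 4 libraries, limma 3.58.1 voom, each library left out in turn, a fit on the groups compared alone, replicates 9 and 12 left out, the brain score as a covariate and an adjusted p of 0.01. List counts without replicates 9 and 12, with the brain score, by DESeq2 and by voom, and single list genes without replicates 9 and 12, were added after seeing the data.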

Additional observations from a re-analysis of the deposited data

Results flagged for a closer look

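3 of 48 sets of 4 libraries held a library far from the others, where chance gives about 1 in 20. Tal1 was lowest in sham replicate 4, at 213 CPM beside 247 to 254 CPM in the other sham libraries. The ratio of Gfi1b to Gata1 was lowest in replicate 10 of the anti-G-CSF group, at 0.391 beside 0.454 to 0.463 in the others. The ratio of Tal1 to Lyl1 was lowest in burn replicate 5, at 1.0596 beside 1.44 to 1.46.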

How the results depend on the processing

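The count of factors lower after burn was 8 in every alternative run except library-size scaling, where it was 9, and each library left out gave 8. Between the burn groups, factors called in either direction numbered 7 to 8 with a library left out and 7 without replicates 9 and 12. They numbered 6, without Ldb1, at an adjusted p of 0.01 and with only the groups compared. Where the count was 8, it included Lyl1, called lower. Against sham, the 2 calls under anti-G-CSF became 0 without replicates 9 and 12, 0 with the brain score and 1 at an adjusted p of 0.01, and 1 to 2 with a library left out. Genes called against sham numbered 1681 in all, 349 to 2271 with a library left out, 35 without replicates 9 and 12, 12 with the brain score and 142 at 0.01. Genes called between the burn groups, 5285, became 3019, 2831 and 3113, and after burn 3207 became 1968 at 0.01. Library-size scaling called 1276 genes higher and 2846 lower after burn (median -0.10, against 1691 and 1516 with TMM), 5762 and 1673 between the burn groups (median 0.26, against 2703 and 2582) and 1294 and 376 against sham (against 1083 and 598), and upper quartile scaling 3769 and 2193 between the burn groups (median 0.15).

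Values that were not called changed sign. Between the burn groups Gata2 was -0.024 with DESeq2 size factors, -0.023 with the Wald test, -0.020 with only the groups compared and -0.073 to 0.076 with a library left out, and Lyl1 was 0.026 with library size. Against sham, Lmo2 was -0.012 with DESeq2 size factors and with the Wald test, -0.048 without replicates 9 and 12 and -0.068 to 0.060 with a library left out. Klf1 was 0.0086 with upper quartile scaling, 0.037 with library size, 0.044 with the brain score and -0.12 to 0.028 with a library left out. Gata1 was 0.00092 with library size and 0.053 with the brain score, and Zfpm1 was -0.025 without replicates 9 and 12 and -0.016 to 0.11 with a library left out. The causes were not tested. No paired analysis was possible because the labels number the libraries 1 to 12 and the groups share no number.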
